A study of Mus musculus with 16 samples.

Results

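ORP5/8 KD was set against Parental in RAW264.7, a line of macrophage-like cells from the mouse, first grown from a tumour that Abelson virus had caused. The comparison takes all 4 ORP5/8 KD libraries and all 4 Parental libraries, 8 of the 16 in the series, chosen by their labels alone. The other 8 libraries, 4 labelled ATP11A/C KD and 4 labelled CDC50A KD, were used to share the estimate of spread and in direct comparisons near the end. The labels give the line as RAW264.7 and its source as myeloid, and every group was plated in 6-well plates without a stated stimulus and taken on the following day. ORP5/8 KD library names start with "sh", an abbreviation left unexplained in the labels, and Parental names with "Ctrl". A non-targeting construct was not analysed here, so a change brought by carrying any construct cannot be told apart from one brought by the targeted genes. The labels do not say whether the 4 libraries of a group came from separate cultures or from 1 clone, so p-values here reflect only how these libraries vary, and that variation may be technical.

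ORP5 and ORP8 are oxysterol-binding protein-related proteins, encoded by Osbpl5 and Osbpl8. They sit in the membrane of the endoplasmic reticulum and bridge it to the plasma membrane, where they move phosphatidylserine outward in exchange for phosphoinositides, the phosphorylated lipids that recruit many signalling and cytoskeletal proteins. In macrophages the plasma membrane serves uptake, migration and signalling through receptors for growth factors, chemokines and adhesion. The endoplasmic reticulum supplies it with lipid and with newly folded protein. The account below follows that route, from contact sites and the secretory pathway to endosomes, signalling, division, energy supply, the cell surface and lineage genes, and leaves the interferon and inflammatory genes aside except as background.

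Osbpl8 (ENSMUSG00000020189.14; chromosome 10, 111164752 to 111297249, in mm10 coordinates of GENCODE M21, as are all positions below) had 109, 98.0, 89.4 and 99.8 CPM in the ORP5/8 KD libraries, against 333, 335, 346 and 335 CPM in the Parental libraries. All 4 ORP5/8 KD libraries lay far below the lowest Parental library. The log2 fold change, given throughout as ORP5/8 KD over Parental with its standard error, was -1.77 ± 0.0561, adjusted p = 1.72e-16 (edgeR quasi-likelihood test with Benjamini-Hochberg adjustment). The transcript was low in the other knockdowns as well, at 127 ± 8.99 CPM in ATP11A/C KD and 116 ± 4.41 CPM in CDC50A KD. Osbpl5 was near the detection limit and below the low-count filter. It had 0.316, 0.163, 0.172 and 0.0537 CPM in the ORP5/8 KD libraries, against 0.215, 0.0547, 0.108 and 0.181 CPM in the Parental libraries. The groups overlapped (exact permutation test, 2-sided p = 0.743, where 4 against 4 libraries allow no less than 0.0286), so a change of Osbpl5 was not detectable at this depth.

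CPM stands for counts-per-million after TMM scaling, and levels are means ± SD over 4 libraries. The deposited counts summed to between 35478120 and 41543050 in the ORP5/8 KD libraries, against 27885958 to 37353063 in the Parental libraries. Of 13107 genes tested, 2878 (22%) were higher and 3181 (24.3%) lower in ORP5/8 KD at an adjusted p under 0.05, and these shares are the background for counts of list members by TMM scaling. At least 2-fold changes were fewer, with 305 genes (2.33%) higher and 552 (4.21%) lower. The median log2 fold change of all tested genes was 0.02, and that of the called genes was 0.34 in absolute size, so most calls were of modest size. The split of the calls moved with the scaling: 47.5% of them were higher by TMM and 63.3% by upper-quartile scaling, which shifted all genes upward by 0.07 on the log2 scale. Under upper-quartile scaling 32.6% of all tested genes were higher and 18.9% lower, and list counts given under that scaling are to be read against these shares. Interferon-stimulated genes took 0.964% of all counts in ORP5/8 KD and 2.42% in Parental, with 148 of 154 tested members lower. Outside that list and the inflammatory list, 304 genes were at least 2-fold higher and 414 at least 2-fold lower.

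**Figure D1:**
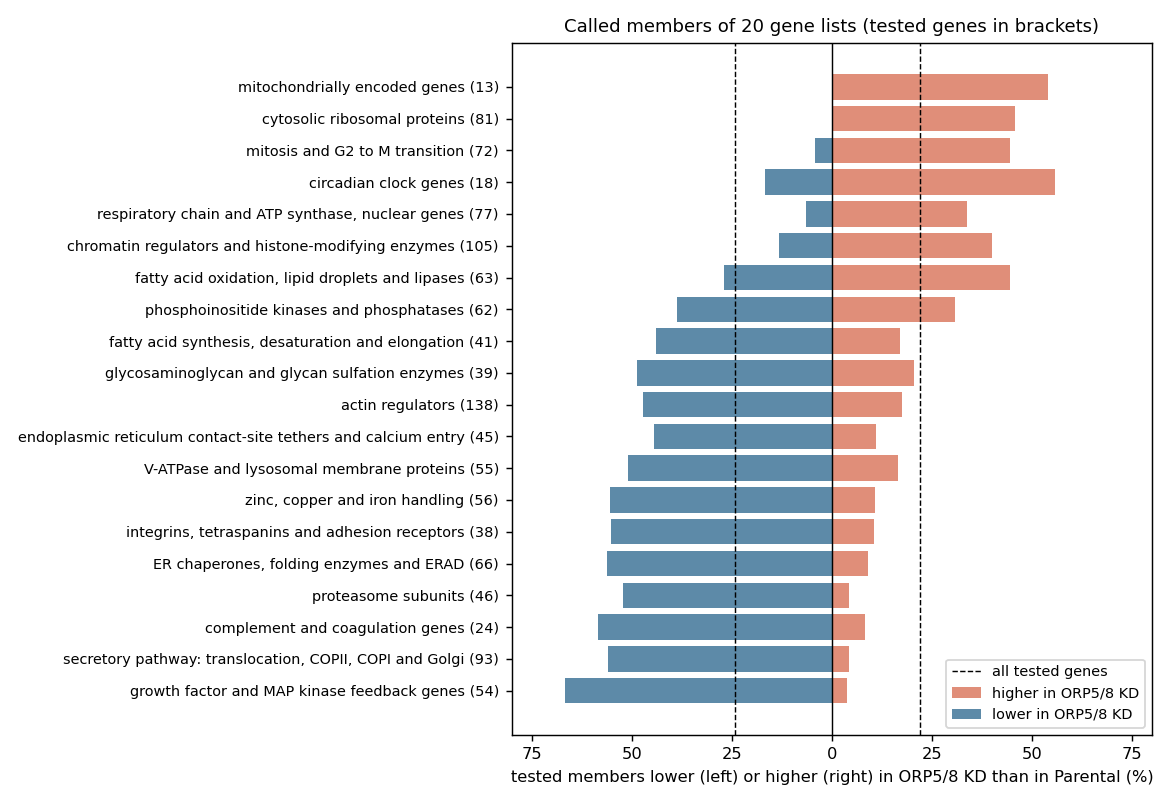
Share of the tested members of 20 gene lists that were called lower (bars to the left, %) or higher (bars to the right, %) in ORP5/8 KD than in Parental, with the number tested in brackets. The dashed lines mark all tested genes, 24.3% lower and 22% higher. The growth factor response list (66.7% lower) and the complement and coagulation list (58.3%) extend furthest to the left, and the circadian clock (55.6% higher) and mitochondrially encoded (53.8%) lists furthest to the right.

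The genes that handle the lipids exchanged by ORP5 and ORP8 moved both ways. Of 62 tested phosphoinositide kinases and phosphatases among 66 listed, 19 were higher and 24 lower, with a median log2 fold change of -0.05 that turned to 0.03 under upper-quartile scaling, where the median of all tested genes was 0.09. The 19 higher members there are no larger a share than the 32.6% of all tested genes. The largest fall of the list was in Efr3b (chromosome 12, 3962554 to 4038915), which with TTC7 anchors the kinase PI4KA at the plasma membrane, where it makes phosphatidylinositol 4-phosphate, the lipid that ORP5 and ORP8 bind. Efr3b had 7.26, 6.40, 5.48 and 6.31 CPM in the ORP5/8 KD libraries, against 17.8, 17.3, 16.1 and 17.5 CPM in the Parental libraries, without overlap (-1.43 ± 0.0850, adjusted p = 7.75e-12). Its paralog Efr3a fell less (96.1 ± 4.66 CPM in ORP5/8 KD and 115 ± 4.42 CPM in Parental; log2 fold change -0.26), and Ttc7b fell by 0.41, while Pi4ka itself stood at 153 ± 3.02 CPM in ORP5/8 KD and 161 ± 5.31 CPM in Parental (adjusted p = 0.237). Sacm1l, the phosphatase that breaks this lipid down in the endoplasmic reticulum, had a log2 fold change of -0.28. Pip5k1b and Ocrl, a kinase that makes and a phosphatase that removes phosphatidylinositol 4,5-bisphosphate, fell by 0.76 and 0.53 on the log2 scale. Pik3r3, a regulatory subunit of phosphoinositide 3-kinase, rose (12.3 ± 0.713 CPM in ORP5/8 KD, against 8.13 ± 0.295 CPM in Parental).

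Proteins that hold the endoplasmic reticulum to other membranes and refill its calcium were more often lower. Of 45 tested members of 54 listed, 5 were higher and 20 lower (median -0.10), or 9 and 17 under upper-quartile scaling. The inositol trisphosphate receptor Itpr1, a calcium release channel, fell to 55.0 ± 3.36 CPM in ORP5/8 KD, against 86.1 ± 1.22 CPM in Parental (-0.65 ± 0.0441, adjusted p = 8.00e-11). Stard3 and its relative Stard3nl, which tether the endoplasmic reticulum to late endosomes, fell by 0.54 and 0.65, and Gramd1b, a sterol carrier at plasma membrane contacts, by 0.47 on the log2 scale. The calcium pump Atp2a3 and the mitochondrial calcium uniporter Mcu fell by 0.48 and 0.65. Esyt1, a tether that shares the ORP5 and ORP8 contact sites, had a log2 fold change of -0.27, while Esyt2 (0.07) and Stim1 (-0.07) did not pass the test. Gramd4, a relative of Gramd1b, rose (41.9 ± 1.54 CPM in ORP5/8 KD, against 28.8 ± 1.86 CPM in Parental), as did the calcium channel subunit Orai3 (0.34).

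Secretory pathway genes were more often lower, by little per gene. Of 93 tested genes of translocation, vesicle coats and the Golgi among 95 listed, 52 were lower and 4 higher, with a median log2 fold change of -0.14 and no member changed 2-fold. Lman1 (chromosome 18, 65980738 to 66022580), the cargo receptor also called ERGIC-53, had 114, 107, 107 and 110.2 CPM in the ORP5/8 KD libraries, against 211, 209.6, 206 and 209 CPM in the Parental libraries. It had the largest log2 fall of the list, and every ORP5/8 KD library lay far below the Parental libraries (-0.93 ± 0.0347, adjusted p = 2.69e-15). Its partner Mcfd2 fell to 36.0 ± 1.32 CPM in ORP5/8 KD, against 52.8 ± 1.83 CPM in Parental (-0.55). The COPII coat subunit Sec24d fell by 0.71, the signal recognition receptor subunit Srprb by 0.42, the translocon subunit Sec61a1 by 0.45, the cargo receptor Surf4 by 0.28 and the COPI subunit Copa by 0.18 on the log2 scale. Creb3 and Creb3l2, membrane-bound transcription factors cleaved in the Golgi that are known to drive secretory genes, fell by 0.63 and 0.62. Under upper-quartile scaling 41 members were lower and 6 higher, and 2 were higher without ORP5/8 KD 4 or without Parental 3.

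Genes of folding and quality control in the endoplasmic reticulum were also more often lower. Of 66 tested chaperones, folding enzymes and degradation factors among 68 listed, 37 were lower and 6 higher (median -0.20; 29 and 8 under upper-quartile scaling; 3 higher without Parental 3). Edem1, a lectin that marks misfolded glycoproteins for disposal, fell to 282 ± 10.4 CPM in ORP5/8 KD, against 467 ± 10.5 CPM in Parental (-0.73 ± 0.0382, adjusted p = 1.02e-12). The disulfide isomerase Pdia4 fell by 0.47, the secreted stress factor Manf by 0.48 and the co-chaperone Hyou1 by 0.36 on the log2 scale. Not all members fell: Xbp1, which encodes a transcription factor activated by splicing in the unfolded protein response, rose to 298 ± 2.05 CPM in ORP5/8 KD, against 251 ± 5.25 CPM in Parental (0.25 ± 0.0362, adjusted p = 8.51e-06), and the isomerase Pdia6 rose by 0.15. Pdia6 lies on chromosome 12, where genes as a group were shifted upward in ORP5/8 KD.

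Promoters of 4 lower members are shown because they hold the ER stress element, the site through which ATF6 is known to raise chaperone genes when unfolded protein builds up. The element was searched as CCAAT, any 9 bases, then CCACG, on both strands, in windows of 300 bases, of which 250 precede the start. These are RefSeq sequences on GRCm38.p6, written 5′ to 3′ on the gene's strand with the element in capitals.
Hspa5 (chr2:34771840-34772139, plus strand): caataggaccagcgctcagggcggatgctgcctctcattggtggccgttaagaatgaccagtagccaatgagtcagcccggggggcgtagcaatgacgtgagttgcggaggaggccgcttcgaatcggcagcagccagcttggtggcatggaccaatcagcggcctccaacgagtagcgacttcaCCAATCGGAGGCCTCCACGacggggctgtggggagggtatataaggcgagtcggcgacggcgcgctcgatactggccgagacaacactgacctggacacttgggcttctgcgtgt
Hsp90b1 (chr10:86705395-86705694, minus strand): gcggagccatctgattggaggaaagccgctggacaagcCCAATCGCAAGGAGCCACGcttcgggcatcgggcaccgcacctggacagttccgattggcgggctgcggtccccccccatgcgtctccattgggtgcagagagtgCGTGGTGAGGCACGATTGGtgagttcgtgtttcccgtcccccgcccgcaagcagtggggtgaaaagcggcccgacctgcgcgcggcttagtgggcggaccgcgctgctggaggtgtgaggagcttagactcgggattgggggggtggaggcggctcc
Calr (chr8:84846882-84847181, minus strand): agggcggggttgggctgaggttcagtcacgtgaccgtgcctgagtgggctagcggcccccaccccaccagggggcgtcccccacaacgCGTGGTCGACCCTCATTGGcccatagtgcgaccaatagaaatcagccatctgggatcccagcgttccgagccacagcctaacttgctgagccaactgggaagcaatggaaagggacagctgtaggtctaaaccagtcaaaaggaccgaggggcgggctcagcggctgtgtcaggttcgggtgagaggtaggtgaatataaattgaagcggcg
Creld2 (chr15:88819396-88819695, plus strand): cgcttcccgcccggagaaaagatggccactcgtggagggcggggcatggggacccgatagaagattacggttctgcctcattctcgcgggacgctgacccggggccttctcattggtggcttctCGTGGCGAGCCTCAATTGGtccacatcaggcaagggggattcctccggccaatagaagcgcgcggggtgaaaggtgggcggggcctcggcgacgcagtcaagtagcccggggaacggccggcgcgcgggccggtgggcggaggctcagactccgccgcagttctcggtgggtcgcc

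Among 9279 tested genes with a promoter window, 13 (0.14%) held the element. The folding list had 8 of 52 (15.4%), among them 6 of the 27 lower and 1 of the 4 higher members with a window. Of 77 secretory pathway genes with a window, 38 of them lower, none held it. The first base of the first match lay 65 bases before the start of Hspa5, 212 before that of Hsp90b1, 162 before that of Calr and 126 before that of Creld2. Hspa5, the central chaperone BiP, had 1883, 1806, 1753 and 1666 CPM in the ORP5/8 KD libraries, against 2335, 2429, 2334 and 2335 CPM in the Parental libraries, and no library of one group reached the other (-0.41 ± 0.0392, adjusted p = 2.05e-08). Creld2, an isomerase-like stress gene, had 89.4, 95.3, 98.8 and 93.0 CPM in the ORP5/8 KD libraries, against 122, 136, 125 and 124 CPM in the Parental libraries, again without overlap (-0.43 ± 0.0432, adjusted p = 4.21e-08). Hsp90b1 and Calr, the chaperones GRP94 and calreticulin, fell by 0.28 and 0.24 on the log2 scale (adjusted p = 4.79e-05 and 1.46e-05). Pdia6 holds the element too and was higher. Hspa5, Hsp90b1, Calr, Creld2 and Pdia6 are outside the rule that chose most named genes and were picked for this motif after their values were seen. A match describes the letters of the window only.

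**Figure D2:**
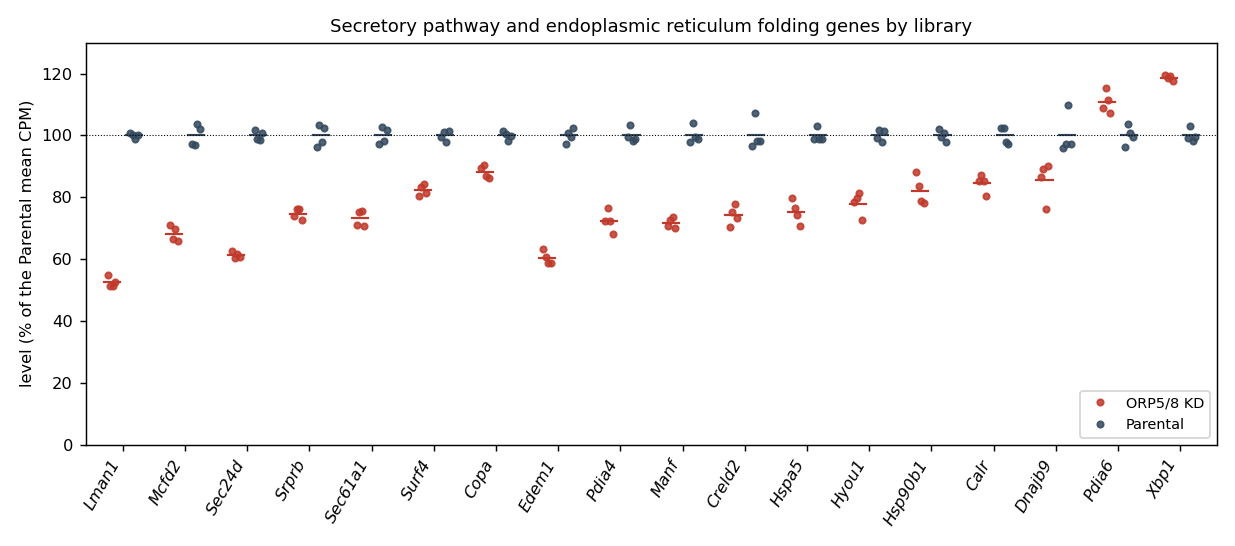
Level of 18 secretory pathway and endoplasmic reticulum genes in each library, as a percentage of the gene's Parental mean CPM (ORP5/8 KD left of Parental; points are libraries, short lines are means, n = 4). Of the genes drawn, Pdia6 and Xbp1 lie above the Parental mean in ORP5/8 KD, and the others below it, Lman1 and Edem1 the furthest.

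Endosomal and lysosomal membrane genes were also more often lower, with some members against that direction. Among 115 tested endosome coat, sorting and SNARE genes of 119 listed, 46 were lower and 10 higher, or 33 and 22 under upper-quartile scaling. The clathrin adaptor Dab2 had 94.8, 88.4, 91.1 and 90.2 CPM in the ORP5/8 KD libraries, against 269.8, 251, 248 and 249.99 CPM in the Parental libraries, and the membrane-tubulating ATPase Ehd1 had 40.7, 43.5, 47.7 and 46.2 CPM in the ORP5/8 KD libraries, against 122, 127, 112 and 118 CPM in the Parental libraries. Both separated the groups completely, with log2 fold changes of -1.48 ± 0.0446, adjusted p = 7.12e-17 for Dab2 and -1.43 ± 0.0596, adjusted p = 1.83e-14 for Ehd1. The late endosomal SNARE Stx7 fell by 0.79, and the ESCRT-III subunits Chmp4b and Chmp5 by 0.70 and 0.72. The SNARE Vamp1 rose by 0.66. Sort1, encoding sortilin, a receptor that carries cargo between Golgi and endosomes, rose to 38.5 ± 1.14 CPM in ORP5/8 KD, against 11.5 ± 0.969 CPM in Parental (1.74 ± 0.0625, adjusted p = 1.38e-15).

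Of 45 tested Rab GTPases among 56 listed, 18 were lower and 3 higher, or 17 and 6 under upper-quartile scaling. Rab7b, which acts between late endosomes and the Golgi, fell to 29.8 ± 0.315 CPM in ORP5/8 KD, against 57.3 ± 2.84 CPM in Parental, and Rab31 to 165 ± 7.36 CPM in ORP5/8 KD, against 258 ± 5.69 CPM in Parental, while Rab43 rose by 0.81 on the log2 scale. Among 55 tested V-ATPase and lysosomal membrane genes of 60 listed, 28 were lower and 9 higher, and together they took 0.874 ± 0.0183% of counts in ORP5/8 KD and 0.914 ± 0.0108% in Parental. The proton pump subunits Atp6v0e, Atp6v1g1 and Atp6v1b2 fell by 0.75, 0.62 and 0.39. Folliculin, Flcn, a regulator of nutrient signalling at the lysosome, rose to 70.7 ± 1.39 CPM in ORP5/8 KD, against 49.0 ± 1.48 CPM in Parental, and the cystine exporter Ctns rose by 0.43.

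**Figure D3:**
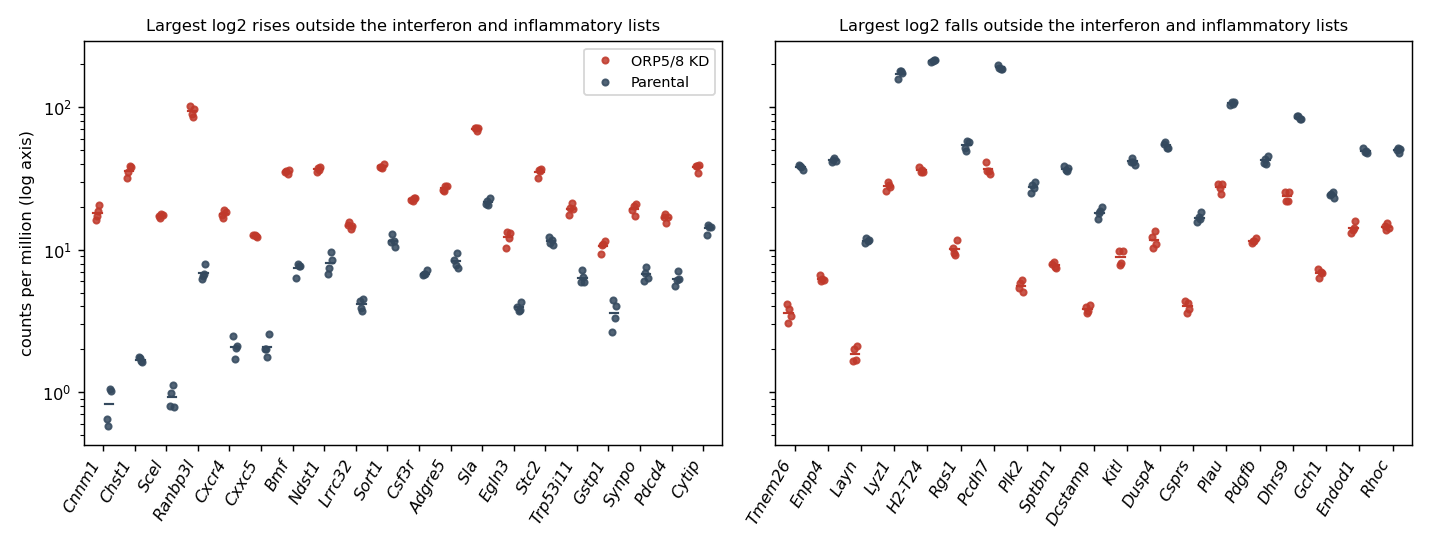
Counts-per-million on a log axis for the 20 genes with the largest log2 rise (left) and 19 of the 20 with the largest log2 fall (right) outside the interferon and inflammatory lists (ORP5/8 KD left of Parental; points are libraries, short lines are means, n = 4). The genes were ranked on this difference and required not to overlap, so the separation is a description of the choice.

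Genes at the ends of the ranking belonged to many classes, and their size is given here without support from the ranking itself. The 20 largest rises and 20 largest falls were taken among 3871 called protein-coding genes outside the interferon and inflammatory lists whose groups did not overlap and which passed a minimum level. Those lists may not hold every gene that interferon or inflammatory signals induce. Whether a gene named here or below responds to such signals was not tested. Cnnm1, of a family of magnesium transporters, had 16.2, 17.4, 18.6 and 20.5 CPM in the ORP5/8 KD libraries, against 0.646, 0.575, 1.05 and 1.02 CPM in the Parental libraries. It was barely detected in Parental and present at a moderate level in every ORP5/8 KD library. Ranbp3l, which exports SMAD proteins from the nucleus in the BMP pathway, had 101, 90.0, 84.99 and 97.1 CPM in the ORP5/8 KD libraries, against 6.28, 6.51, 6.71 and 7.98 CPM in the Parental libraries. Both separated the groups by far more than their spread. Scel, encoding sciellin, stood at 17.4 ± 0.393 CPM in ORP5/8 KD and 0.922 ± 0.160 CPM in Parental, and Stc2, a secreted glycoprotein of calcium and phosphate balance, at 35.1 ± 2.34 CPM in ORP5/8 KD and 11.5 ± 0.653 CPM in Parental. At the other end, Tmem26 had 4.18, 3.08, 3.81 and 3.41 CPM in the ORP5/8 KD libraries, against 39.5, 38.8, 38.2 and 36.3 CPM in the Parental libraries. The protocadherin gene Pcdh7 had 41.4, 35.9, 35.6 and 33.9 CPM in the ORP5/8 KD libraries, against 198, 189, 187 and 187 CPM in the Parental libraries, and Enpp4, an ectoenzyme that splits dinucleotides, had 6.25 ± 0.255 CPM in ORP5/8 KD, against 42.5 ± 1.15 CPM in Parental. Gch1, the first enzyme of tetrahydrobiopterin synthesis, stood at 6.86 ± 0.399 CPM in ORP5/8 KD and 24.4 ± 0.998 CPM in Parental, and Sptbn1, the spectrin that lines the plasma membrane, at 7.79 ± 0.313 CPM in ORP5/8 KD and 36.9 ± 1.23 CPM in Parental.

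Growth factor response genes had the largest share of lower members outside the interferon-stimulated genes, the inflammatory genes and the macrophage markers. MAP kinase signalling from receptors at the plasma membrane induces immediate-early transcription factors and, with them, the phosphatases and Sprouty-related proteins that turn the pathway off. Of 54 tested members of 61 listed, 36 were lower and 2 higher (Rasa3 and Mycn), with a median log2 fold change of -0.40, and 12 were at least 2-fold lower. Under upper-quartile scaling 30 were lower and 3 higher.

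Among the transcription factors, Fos had 10.4, 9.45, 12.6 and 11.3 CPM in the ORP5/8 KD libraries, against 36.8, 35.1, 31.2 and 32.4 CPM in the Parental libraries, with every ORP5/8 KD library well below every Parental library (-1.63 ± 0.0790, adjusted p = 2.41e-13). Fosl1, encoding FRA1, fell to 0.553 ± 0.1003 CPM in ORP5/8 KD, against 3.26 ± 0.601 CPM in Parental (-2.56 ± 0.187, adjusted p = 2.64e-10), and Egr1 to 16.9 ± 1.13 CPM in ORP5/8 KD, against 33.6 ± 1.48 CPM in Parental (-0.996 ± 0.0625, adjusted p = 2.02e-11). The ETS factors that follow ERK activity moved with them: Etv5 had 15.7, 17.1, 18.2 and 17.7 CPM in the ORP5/8 KD libraries, against 44.2, 44.0, 44.5 and 43.5 CPM in the Parental libraries, and Etv1 fell by 1.04 and Ets2 by 0.95 on the log2 scale. Fos and Etv1 lie on chromosome 12, where most called genes were higher. Jun showed less, with 39.1, 38.4, 44.8 and 42.1 CPM in the ORP5/8 KD libraries, against 54.0, 56.6, 44.7 and 42.1 CPM in the Parental libraries (adjusted p = 0.0175). Its groups overlapped, and the call was lost under upper-quartile scaling and without ORP5/8 KD 1 or 2 or Parental 1 or 2, at adjusted p from 0.0628 to 0.119. Junb overlapped as well (54.4, 59.5, 72.8 and 73.4 CPM in the ORP5/8 KD libraries, against 96.7, 94.8, 77.4 and 68.4 CPM in the Parental libraries; log2 fold change -0.38). Mycn, against the list, had 792, 945, 1075 and 1039 CPM in the ORP5/8 KD libraries, against 726, 797, 618 and 594 CPM in the Parental libraries (0.49 ± 0.0983, adjusted p = 0.000305), also overlapping. It lies on chromosome 12 too, and its rise went along the direction of that chromosome.

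Several inhibitors of the pathway were lower too. Dusp6, the phosphatase for ERK in the cytoplasm, had 9.70, 11.1, 12.2 and 10.7 CPM in the ORP5/8 KD libraries, against 23.2, 24.0, 22.8 and 22.9 CPM in the Parental libraries (-1.09 ± 0.0640, adjusted p = 6.47e-12). Dusp4, its nuclear relative, had 12.2, 10.4, 13.6 and 10.98 CPM in the ORP5/8 KD libraries, against 55.1, 57.5, 52.0 and 51.5 CPM in the Parental libraries, the largest fall of the dual-specificity phosphatases tested (-2.20 ± 0.0844, adjusted p = 4.38e-15). Neither gene overlapped between the groups. Spred1 and Spred2, which block activation of RAF, fell by 0.81 and 0.40. Rasgrp3, an activator of RAS that is recruited by diacylglycerol, fell to 135 ± 4.64 CPM in ORP5/8 KD, against 317 ± 8.23 CPM in Parental (-1.23 ± 0.0401, adjusted p = 2.64e-16). Dusp1 (0.04, adjusted p = 0.776) and Dusp2 (0.02, adjusted p = 0.876) did not pass the test.

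Signal regulators outside the lists above moved both ways. Of 49 tested cyclic AMP and G protein regulators 11 were higher and 19 lower (16 and 17 under upper-quartile scaling), with Gnaq, the alpha subunit that couples receptors to phospholipase C, at 82.9 ± 3.78 CPM in ORP5/8 KD and 131 ± 5.86 CPM in Parental, and the phosphodiesterase Pde4b lower by 0.72 on the log2 scale. Of 39 tested Wnt, Notch and Hippo genes 8 were higher and 9 lower, shares below the background, or 13 and 7 under upper-quartile scaling. Rbpj, the DNA-binding effector of Notch, had 171, 169, 157 and 164 CPM in the ORP5/8 KD libraries, against 334, 329.9, 334 and 338 CPM in the Parental libraries. It was lower in every ORP5/8 KD library (-1.01 ± 0.0396, adjusted p = 5.55e-15). TGF-beta, BMP and activin genes were 8 higher and 15 lower of 39, and under upper-quartile scaling 13 higher and 12 lower.

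Cell cycle genes changed in both directions. Ccnd1, the D-type cyclin that growth factors induce to carry cells out of G1, had 191, 196, 206 and 189.5 CPM in the ORP5/8 KD libraries, against 500.2, 516, 505 and 474 CPM in the Parental libraries, a complete separation (-1.35 ± 0.0445, adjusted p = 3.14e-16). Its partner kinase Cdk6 fell to 89.7 ± 5.99 CPM in ORP5/8 KD, against 158 ± 4.86 CPM in Parental (-0.82), and Ccnd3 by 0.26, while Ccnd2 had a log2 fold change of 0.18 (adjusted p = 0.133). Inhibitors of division moved both ways: Cdkn1a, the p53 target p21, fell to 115 ± 5.76 CPM in ORP5/8 KD, against 265 ± 9.13 CPM in Parental, whereas Cdkn1b, encoding p27, rose to 43.9 ± 2.88 CPM in ORP5/8 KD, against 28.9 ± 1.62 CPM in Parental (0.60 ± 0.0642, adjusted p = 9.71e-08). The antiproliferative genes Btg2 and Tob1, which bind the CCR4-NOT deadenylase, rose. Btg2 had 58.3, 58.9, 60.5 and 63.9 CPM in the ORP5/8 KD libraries, against 20.5, 23.1, 23.5 and 27.0 CPM in the Parental libraries, and Tob1 had 29.0, 30.7, 28.2 and 31.5 CPM in the ORP5/8 KD libraries, against 15.97, 16.9, 16.1 and 15.9 CPM in the Parental libraries, neither overlapping. Of 46 tested cyclins, CDK inhibitors and checkpoint kinases among 50 listed, 14 were higher and 12 lower, or 22 and 12 under upper-quartile scaling.

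Mitotic genes were more often higher, by small amounts. All 72 listed were tested, of which 32 were higher and 3 lower (Ndc80, Anln and Pttg1), with a median log2 fold change of 0.10 and none changed 2-fold. Under upper-quartile scaling 47 were higher. The condensin subunit Ncapd2 rose to 286 ± 5.40 CPM in ORP5/8 KD, against 202 ± 4.09 CPM in Parental (0.50 ± 0.0459, adjusted p = 9.93e-09), Cdc20, the activator of the anaphase-promoting complex, by 0.43, and the kinase Aurkb by 0.33 on the log2 scale. Plk1 and Ccnb1 did not pass the test (0.02 and 0.07). Of 58 tested replication genes 13 were higher and 17 lower (19 and 9 under upper-quartile scaling), and by either scaling the share of higher members was close to that of all tested genes.

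Several rising genes restrain growth or respond to nutrient and insulin withdrawal. Those outside the naming rule (Sesn1, Pik3ip1, Ccng2, Foxo1, Foxo3, Ddit4, Txnip and Tsc22d3) were picked after their values were seen, and the group carries no count. Sesn1, which restrains mTORC1, had 136, 134, 128 and 135 CPM in the ORP5/8 KD libraries, against 55.0, 52.1, 52.5 and 51.6 CPM in the Parental libraries. Pik3ip1, a transmembrane inhibitor of phosphoinositide 3-kinase, had 3.44, 3.36, 3.49 and 3.81 CPM in the ORP5/8 KD libraries, against 0.892, 1.204, 1.01 and 0.663 CPM in the Parental libraries, and Pdcd4, an inhibitor of the helicase eIF4A, had 17.0, 17.8, 15.4 and 16.8 CPM in the ORP5/8 KD libraries, against 5.60, 6.10, 7.03 and 6.27 CPM in the Parental libraries. None of these overlapped, and the log2 fold changes were 1.34 ± 0.0375, adjusted p = 2.19e-17 for Sesn1, 1.90 ± 0.218, adjusted p = 3.03e-07 for Pik3ip1 and 1.43 ± 0.0874, adjusted p = 1.37e-11 for Pdcd4. Ddit4, another mTORC1 inhibitor, rose by 0.84, the cyclin-like Ccng2 by 0.48, Klf9 by 0.76 and Eif4ebp2, a repressor of cap-dependent translation, by 0.53 on the log2 scale. The transcription factors Foxo1 and Foxo3, known to drive several of these genes when AKT is inactive, rose by 0.37 and 0.44. The activity of AKT or of these factors was not measured in these data. Pdk2, a kinase that holds pyruvate dehydrogenase inactive, rose to 4.36 ± 0.566 CPM in ORP5/8 KD, against 0.888 ± 0.0534 CPM in Parental (2.29 ± 0.18, adjusted p = 8.95e-10). Txnip, a glucose-responsive inhibitor of thioredoxin, fell by 0.31, and Tsc22d3 did not pass the test (0.00).

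Cell death and survival genes were called in both directions, more often lower. Bmf, a BH3-only protein that promotes apoptosis when cells lose their attachment, had 35.2, 36.0, 34.0 and 36.3 CPM in the ORP5/8 KD libraries, against 6.31, 7.96, 7.68 and 7.65 CPM in the Parental libraries (2.26 ± 0.106, adjusted p = 1.39e-13). Bcl2l11, encoding the BH3-only protein BIM, whose level ERK activity is known to lower, had 41.3, 37.4, 37.3 and 40.1 CPM in the ORP5/8 KD libraries, against 26.8, 27.2, 27.0 and 26.8 CPM in the Parental libraries (log2 fold change 0.53). Bcl2l1, which encodes the antiapoptotic BCL-XL, had 20.1, 18.4, 20.5 and 20.2 CPM in the ORP5/8 KD libraries, against 52.0, 52.1, 48.5 and 51.3 CPM in the Parental libraries (-1.37 ± 0.0514, adjusted p = 3.02e-15). None of the 3 genes overlapped between the groups. Bcl2 fell by 0.55 and Cflar, the inhibitor of caspase-8, by 0.60, while Mcl1 (-0.09), Bax (-0.06) and the p53-induced Bbc3 (0.01) did not pass the test. In the list as a whole 9 of 46 tested members of 52 listed were higher and 18 lower, or 11 and 17 under upper-quartile scaling.

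**Figure D4:**
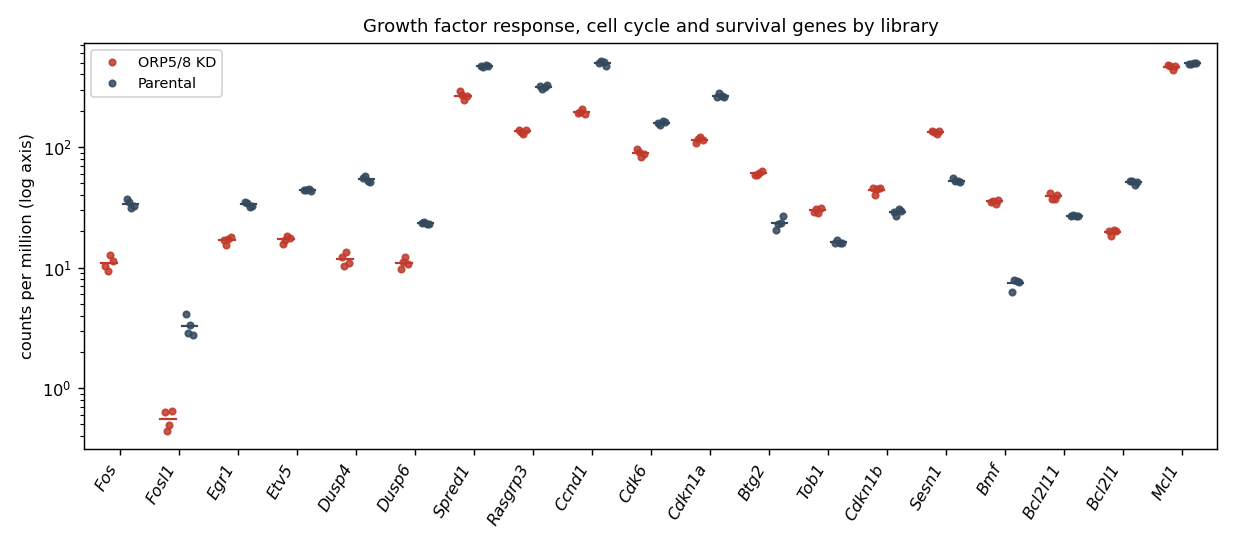
Counts-per-million on a log axis for 19 genes of growth factor response, cell cycle and survival (ORP5/8 KD left of Parental; points are libraries, short lines are means, n = 4). From Fos to Cdkn1a every ORP5/8 KD library is below the Parental libraries, from Btg2 to Bcl2l11 every one is above, Bcl2l1 is below again, and the 2 groups of Mcl1 lie side by side.

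Cytosolic ribosomal protein genes were more often higher. All 81 cytosolic ribosomal protein genes listed were tested, of which 37 were higher and none lower, with a median log2 fold change of 0.12. Under upper-quartile scaling 61 were higher and none lower. Their share of all counts was 4.77%, 5.24%, 5.22% and 5.05% in the ORP5/8 KD libraries, against 4.13%, 4.61%, 4.38% and 4.24% in the Parental libraries, and the groups did not overlap. Rps7 rose to 680.4 ± 22.5 CPM in ORP5/8 KD, against 527 ± 43.7 CPM in Parental, Rpl10a to 691 ± 39.7 CPM in ORP5/8 KD, against 561 ± 17.2 CPM in Parental, and the elongation factor Eef1a1 to 13118 ± 541 CPM in ORP5/8 KD, against 12066 ± 230.4 CPM in Parental. Pseudogenes of these genes are many, so reads could have been split among copies. Assembly factors of the ribosome showed 17 higher and 15 lower of 95, and 78 mitochondrial ribosomal proteins 12 higher and 8 lower, all below the background shares. Under upper-quartile scaling they were 36 and 8 for the assembly factors and 29 and 4 for the mitochondrial ribosomal proteins. Without Parental 2 the lower members numbered 9 and 5, and without ORP5/8 KD 4 or Parental 4 the higher mitochondrial ribosomal proteins numbered 7. Of 70 tested tRNA synthetases and translation factors, 13 were higher and 27 lower, or 18 each under upper-quartile scaling.

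Proteasome genes were more often lower. All 46 proteasome subunits and activators listed were tested, of which 24 were lower and 2 higher (15 lower without Parental 2). Under upper-quartile scaling 11 were lower and 4 higher, and the share lower was closer to the 18.9% of all tested genes. Psme1 and Psme2, which form the PA28 activator, had the largest falls (0.79 and 0.82 on the log2 scale) and are also known to be induced by interferon. The catalytic subunit Psmb6 fell to 132 ± 7.72 CPM in ORP5/8 KD, against 179 ± 6.94 CPM in Parental (-0.44 ± 0.0430, adjusted p = 2.93e-08). Of 52 tested cytosolic heat shock proteins and chaperonins 19 were lower and 6 higher (10 higher without ORP5/8 KD 1), or 9 and 12 under upper-quartile scaling, where the share lower was under that of all tested genes. Among 55 tested mRNA-binding proteins 9 were higher and 20 lower, or 18 and 13 under upper-quartile scaling. Igf2bp3, an oncofetal protein that stabilises bound mRNA, had 7.52, 6.93, 6.64 and 7.22 CPM in the ORP5/8 KD libraries, against 1.85, 2.08, 1.84 and 1.93 CPM in the Parental libraries, while its relative Igf2bp2 had 17.2, 16.8, 16.1 and 17.2 CPM in the ORP5/8 KD libraries, against 32.1, 33.2, 31.2 and 34.9 CPM in the Parental libraries. The pair moved in opposite directions without overlap (1.87 ± 0.0847, adjusted p = 7.56e-14 for Igf2bp3; -0.96 ± 0.0555, adjusted p = 4.59e-12 for Igf2bp2). Zfp36, which speeds the decay of mRNAs with AU-rich elements, fell by 0.66, and Zfp36l1, on chromosome 12, rose by 0.35.

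Transcripts of the mitochondrial genome, which encode subunits of the respiratory chain, took 1.69%, 1.66%, 1.49% and 1.74% of counts in the ORP5/8 KD libraries, against 1.23%, 1.15%, 1.19% and 1.06% in the Parental libraries. Every ORP5/8 KD library lay above the Parental range. All 13 genes were tested, 7 were higher and none lower, and the median log2 fold change was 0.37. The cytochrome b gene mt-Cytb rose to 2075 ± 112 CPM in ORP5/8 KD, against 1233 ± 107 CPM in Parental (0.75 ± 0.0768, adjusted p = 5.54e-08), and the complex I genes mt-Nd1 and mt-Nd4 rose by 0.59 and 0.54. Of 77 tested nuclear genes of the respiratory chain, 26 were higher and 5 lower (46 and 3 under upper-quartile scaling). Without Parental 4 only 15 were higher, no larger a share than the 19.6% of all tested genes that were higher in that fit. Their share of counts was 1.19 ± 0.0337% in ORP5/8 KD and 1.08 ± 0.0327% in Parental. Ndufv1 and Uqcrh rose by 0.35 and 0.34, against falls of 0.66 in Sdhd, a complex II subunit, and 0.60 in Cox6a1. In the citric acid cycle 15 of 39 tested members were higher and 6 lower (23 and 3 under upper-quartile scaling), with Mdh1 at 390.2 ± 5.85 CPM in ORP5/8 KD and 308 ± 8.08 CPM in Parental.

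Clock genes moved both ways, with activators lower and several repressors higher. In the circadian loop the activators BMAL1 (Arntl) and CLOCK drive genes with an E-box, among them those of their own repressors. Arntl had 13.1, 11.4, 11.9 and 11.8 CPM in the ORP5/8 KD libraries, against 17.9, 19.1, 19.7 and 19.98 CPM in the Parental libraries, and Clock had 63.8, 52.7, 49.6 and 58.1 CPM in the ORP5/8 KD libraries, against 82.7, 74.97, 85.2 and 84.6 CPM in the Parental libraries, both without overlap and lower in ORP5/8 KD (-0.67 ± 0.0609, adjusted p = 8.92e-09 for Arntl; -0.55 ± 0.0651, adjusted p = 5.13e-07 for Clock). Cry1, a repressor of that pair, had 37.5, 35.0, 35.7 and 38.1 CPM in the ORP5/8 KD libraries, against 23.8, 23.9, 21.1 and 22.6 CPM in the Parental libraries (0.68 ± 0.0516, adjusted p = 5.25e-10). Nr1d1, the repressor REV-ERB-alpha that acts on Arntl, had 8.89, 8.64, 9.22 and 9.53 CPM in the ORP5/8 KD libraries, against 3.94, 4.46, 4.40 and 5.48 CPM in the Parental libraries (0.99 ± 0.103, adjusted p = 7.31e-08), and the output factor Dbp stood at 5.85 ± 0.303 CPM in ORP5/8 KD and 3.13 ± 0.441 CPM in Parental. Every ORP5/8 KD library was above every Parental library in these 3. Per3 rose by 0.78, Cry2 by 0.30, Bhlhe41 by 0.33, and Csnk1e, a kinase that governs the stability of PER proteins, by 0.47. Tef, an output factor related to Dbp, went the other way (by -0.38 on the log2 scale), and Per2, Ciart and Bhlhe40 did not pass the test. Of 18 tested members among 21 listed, 10 were higher and 3 lower (median 0.22). The labels do not give the hour of collection.

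Promoters of Cry1 and Tef are shown because both hold an E-box, here CACGTG in capitals, and moved in opposite directions. They are RefSeq windows on GRCm38.p6, written as those above.
Cry1 (chr10:85185005-85185304, minus strand): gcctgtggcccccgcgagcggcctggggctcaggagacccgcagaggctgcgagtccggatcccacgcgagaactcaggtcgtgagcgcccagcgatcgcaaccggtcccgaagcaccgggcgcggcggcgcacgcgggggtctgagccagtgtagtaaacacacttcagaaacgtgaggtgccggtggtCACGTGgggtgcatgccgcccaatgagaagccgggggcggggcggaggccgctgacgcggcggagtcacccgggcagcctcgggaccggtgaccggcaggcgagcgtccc
Tef (chr15:81802423-81802722, plus strand): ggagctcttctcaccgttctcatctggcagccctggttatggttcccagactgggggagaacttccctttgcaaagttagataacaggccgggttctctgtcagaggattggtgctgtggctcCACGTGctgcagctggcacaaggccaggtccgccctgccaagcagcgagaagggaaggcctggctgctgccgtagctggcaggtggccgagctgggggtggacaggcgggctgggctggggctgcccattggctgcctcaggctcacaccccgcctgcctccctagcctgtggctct

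The E-box began 60 bases before the start of Cry1 and 127 before the start shown for Tef. Another Tef window (chr15:81811164-81811463) also held an E-box, 138 bases before its own start. The E-box was found in 5 of 14 clock genes with a window (35.7%, namely Per1, Cry1, Tef, Ciart and Bhlhe41) and in 1112 of all 9279 tested genes with a window. Of those 5, Per1 (0.19, a call lost without ORP5/8 KD 2, 3 or 4 or Parental 3 or 4, at adjusted p from 0.073 to 0.129), Cry1 and Bhlhe41 were higher, Tef was lower, and Ciart (-0.08) did not pass the test.

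At the cell surface, enzymes that sulfate and sialylate glycans changed strongly at single members. Chst1 (chromosome 2, 92599707 to 92615250), which adds sulfate to galactose of keratan sulfate and related glycans, had 32.0, 35.3, 38.6 and 37.9 CPM in the ORP5/8 KD libraries, against 1.75, 1.72, 1.66 and 1.63 CPM in the Parental libraries. Ndst1, which starts the sulfation of heparan sulfate, had 35.1, 37.6, 36.3 and 37.8 CPM in the ORP5/8 KD libraries, against 6.74, 7.42, 9.63 and 8.53 CPM in the Parental libraries. Both were higher in every ORP5/8 KD library (4.41 ± 0.119, adjusted p = 1.47e-17 for Chst1; 2.19 ± 0.110, adjusted p = 4.55e-13 for Ndst1), while Chst3, of chondroitin sulfation, fell to 12.4 ± 0.768 CPM in ORP5/8 KD, against 26.6 ± 0.465 CPM in Parental. The heparan sulfate carriers Sdc4 and Sdc1, which encode syndecans, fell by 1.33 and 0.91, and Ext1, which builds the chain, by 0.69 on the log2 scale. Of 39 tested members of this list among 58, 8 were higher and 19 lower (10 and 14 under upper-quartile scaling). Among sialyl and fucosyl enzymes 7 of 48 were higher and 22 lower, or 11 and 17 under upper-quartile scaling. St3gal5, which makes the ganglioside GM3, fell to 50.6 ± 3.29 CPM in ORP5/8 KD, against 123 ± 2.701 CPM in Parental (-1.28 ± 0.0457, adjusted p = 1.29e-15), and St6gal1, which caps N-glycans, rose to 95.4 ± 2.08 CPM in ORP5/8 KD, against 52.6 ± 1.49 CPM in Parental (0.86 ± 0.0493, adjusted p = 4.34e-12).

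Receptors that guide migration moved both ways. Cxcr4, the receptor for CXCL12, had 17.4, 16.6, 19.1 and 18.4 CPM in the ORP5/8 KD libraries, against 2.46, 1.70, 2.06 and 2.11 CPM in the Parental libraries, with no overlap (3.10 ± 0.165, adjusted p = 1.19e-12). S1pr1, a receptor for sphingosine 1-phosphate that draws cells out of tissue, had 34.6, 33.4, 32.0 and 40.0 CPM in the ORP5/8 KD libraries, against 15.9, 16.5, 15.8 and 14.9 CPM in the Parental libraries (1.15 ± 0.0761, adjusted p = 5.12e-11). The complement peptide receptors moved against them: C5ar1 fell to 17.5 ± 1.05 CPM in ORP5/8 KD, against 35.6 ± 2.31 CPM in Parental, and C3ar1 to 35.9 ± 0.914 CPM in ORP5/8 KD, against 68.6 ± 1.47 CPM in Parental. Gpr84, a receptor for medium-chain fatty acids, had 25.2, 27.2, 26.5 and 27.9 CPM in the ORP5/8 KD libraries, against 89.3, 90.4, 85.9 and 86.6 CPM in the Parental libraries (-1.72 ± 0.0445, adjusted p = 6.28e-18), and Calcrl, part of the receptors for calcitonin gene-related peptide and adrenomedullin, had 23.7, 21.1, 22.9 and 21.3 CPM in the ORP5/8 KD libraries, against 69.8, 69.8, 76.5 and 71.4 CPM in the Parental libraries. Both lay lower in all 4 ORP5/8 KD libraries. The adhesion receptor Adgre5 (CD97) rose by 1.72, and Adcy6, an adenylyl cyclase, rose to 4.91 ± 0.513 CPM in ORP5/8 KD, against 1.10 ± 0.255 CPM in Parental, while Rgs1 and Rgs2, which shorten G protein signals, fell by 2.42 and 1.11 on the log2 scale. Of 17 tested chemoattractant receptors 4 were higher and 8 lower, and of 30 other G protein-coupled receptors 8 were higher and 11 lower.

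Adhesion, matrix and cytoskeletal genes were more often lower. Of 38 tested integrins, tetraspanins and adhesion receptors among 70 listed, 21 were lower and 4 higher, with a median log2 fold change of -0.34. Cd44, the hyaluronan receptor, had 161, 153, 149 and 148 CPM in the ORP5/8 KD libraries, against 318, 315, 307 and 299 CPM in the Parental libraries (-1.02 ± 0.0462, adjusted p = 7.75e-14). Alcam, Cd47, Itga5 and Itgam, the alpha chain of complement receptor CR3, fell by 0.77, 0.82, 0.77 and 0.66. Among 30 tested matrix genes and proteases of 77 listed, 15 were lower and 5 higher (median -0.40). The sheddases Adam8, Adam9 and Adam17 all fell, and Adam17, which releases membrane-bound cytokines and growth factors and lies on chromosome 12, had 149.7, 140.0, 139 and 132 CPM in the ORP5/8 KD libraries, against 270.1, 275, 276 and 272 CPM in the Parental libraries. Every ORP5/8 KD library was well under the Parental values (-0.96 ± 0.0471, adjusted p = 2.81e-13). Spp1, encoding osteopontin, fell to 845 ± 27.7 CPM in ORP5/8 KD, against 2135 ± 79.6 CPM in Parental, and Plau, the urokinase, to 27.4 ± 2.17 CPM in ORP5/8 KD, against 106 ± 2.53 CPM in Parental.

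Of 138 tested regulators of the actin cytoskeleton among 155 listed, 65 were lower and 24 higher (median -0.13), or 56 and 35 under upper-quartile scaling. Actb, the cytoplasmic beta-actin, fell to 3307 ± 208 CPM in ORP5/8 KD, against 5045 ± 219.8 CPM in Parental, and Actg1, the gamma-actin, to 1099 ± 34.7 CPM in ORP5/8 KD, against 1864 ± 62.1 CPM in Parental. Rhoc, a GTPase of motile cells, had 14.6, 13.7, 15.4 and 14.3 CPM in the ORP5/8 KD libraries, against 50.3, 51.4, 47.7 and 51.2 CPM in the Parental libraries (-1.79 ± 0.0628, adjusted p = 9.56e-16). Tropomyosin Tpm4 and the exchange factor Arhgef7 fell by 0.79 and 0.95. Dock9, an activator of CDC42, rose to 5.57 ± 0.472 CPM in ORP5/8 KD, against 1.69 ± 0.217 CPM in Parental. Among complement and coagulation genes 14 of 24 tested were lower and 2 higher, though several, such as C3 (-1.69) and Cfb (-4.71), are also induced by interferon or inflammatory signals.

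Secreted growth factors and their receptors followed suit, with 20 of 39 tested members of 85 listed lower and 8 higher. Pdgfb, the B chain of platelet-derived growth factor, had 11.2, 11.6, 11.5 and 12.1 CPM in the ORP5/8 KD libraries, against 40.5, 43.7, 39.8 and 45.2 CPM in the Parental libraries (-1.87 ± 0.0710, adjusted p = 3.62e-15). Kitl, the ligand of KIT, had 9.73, 7.77, 8.04 and 9.85 CPM in the ORP5/8 KD libraries, against 41.4, 44.1, 41.6 and 39.4 CPM in the Parental libraries (-2.24 ± 0.0992, adjusted p = 5.54e-14). Csf3r, the receptor for granulocyte colony-stimulating factor, rose to 22.6 ± 0.636 CPM in ORP5/8 KD, against 6.80 ± 0.251 CPM in Parental, and Lrrc32, which displays latent TGF-beta at the surface, to 14.8 ± 0.670 CPM in ORP5/8 KD, against 4.13 ± 0.378 CPM in Parental. Of the TGF-beta family receptors, Bmpr1a fell by 0.73 and Tgfbr2 by 0.51 on the log2 scale. The guidance receptor Nrp1 and the ligand Sema4d fell by 1.56 and 1.15, while the plexins Plxnd1 and Plxnc1 rose by 1.000 and 0.81.

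Lipid storage and oxidation genes showed both a high share of rises and large falls. Of 63 tested members among 77 listed, 28 were higher and 17 lower (median 0.12), or 36 and 14 under upper-quartile scaling. Most of the members named next fell, unlike most called members of the list. Plin2, the coat protein of lipid droplets, fell to 79.2 ± 2.18 CPM in ORP5/8 KD, against 146 ± 9.12 CPM in Parental (-0.88 ± 0.0477, adjusted p = 1.69e-12), and Lpl, lipoprotein lipase, had a log2 fold change of -1.37. Fabp4, a fatty acid carrier of macrophages, fell by 2.17, and Pnpla7, a lysophospholipase, rose by 0.62. In fatty acid synthesis 18 of 41 tested members were lower and 7 higher, or 15 and 10 under upper-quartile scaling. Scd1, which desaturates stearate, fell to 217 ± 5.79 CPM in ORP5/8 KD, against 362 ± 13.4 CPM in Parental, and Acsl4, which loads arachidonate onto coenzyme A, to 114 ± 9.01 CPM in ORP5/8 KD, against 185 ± 2.33 CPM in Parental, whereas Lpin2 rose by 0.59. Among prostaglandin enzymes, Ptgs1, the constitutive cyclooxygenase, rose to 81.5 ± 2.82 CPM in ORP5/8 KD, against 50.4 ± 1.99 CPM in Parental, and Hpgd, which inactivates prostaglandins, to 8.48 ± 0.769 CPM in ORP5/8 KD, against 1.00 ± 0.135 CPM in Parental.

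Amino acid, one-carbon and redox genes showed rises and falls within each list. Of 52 tested amino acid and one-carbon genes among 59 listed, 19 were higher and 13 lower (26 and 11 under upper-quartile scaling). Ass1, which makes the precursor of arginine, fell to 3.65 ± 0.280 CPM in ORP5/8 KD, against 11.3 ± 0.934 CPM in Parental (-1.63 ± 0.103, adjusted p = 2.39e-11). Cth, which makes cysteine from cystathionine, had 2.18, 2.52, 2.06 and 2.74 CPM in the ORP5/8 KD libraries, against 6.18, 7.50, 6.89 and 9.01 CPM in the Parental libraries, with the groups apart (-1.64 ± 0.135, adjusted p = 1.95e-09). Of the folate enzymes, the mitochondrial Mthfd2 fell by 0.54 and the cytosolic Mthfd1, on chromosome 12, rose by 0.41. Among 54 tested NRF2 targets and glutathione genes 15 were higher and 11 lower, or 21 and 10 under upper-quartile scaling. Malic enzyme Me1, a source of NADPH, fell to 22.1 ± 1.00 CPM in ORP5/8 KD, against 39.5 ± 2.12 CPM in Parental, and the peroxidase Prdx1 to 473 ± 25.4 CPM in ORP5/8 KD, against 761 ± 32.7 CPM in Parental, whereas the glutathione transferases Gstm1 and Gsto1 rose by 0.92 and 0.57 on the log2 scale.

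Metal transport genes were more often lower, and the solute and ion transport lists held calls in both directions. Of 56 tested genes of zinc, copper and iron handling among 64 listed, 31 were lower and 6 higher (23 and 15 under upper-quartile scaling). The zinc importers Slc39a1 and Slc39a6 fell by 0.97 and 0.58, the copper transporter Slc31a2 by 1.15, and haem oxygenase Hmox1 to 78.1 ± 4.45 CPM in ORP5/8 KD, against 139 ± 8.52 CPM in Parental. Fth1, the ferritin heavy chain, fell to 2454 ± 150.5 CPM in ORP5/8 KD, against 3671 ± 399.5 CPM in Parental, whereas the light chain Ftl1 stood at 4684 ± 245 CPM in ORP5/8 KD and 4632 ± 348 CPM in Parental (adjusted p = 0.847). Of 45 tested solute carriers among 53 listed, 13 were higher and 18 lower (17 and 16 under upper-quartile scaling), and of 67 tested ion channels, exchangers and phosphate transporters among 84 listed, 13 were higher and 25 lower (18 and 23). Slc5a3, a myo-inositol importer that supplies the head group of phosphoinositides, had 367, 323, 285 and 325 CPM in the ORP5/8 KD libraries, against 148, 143, 171 and 168 CPM in the Parental libraries (1.05 ± 0.0842, adjusted p = 1.28e-09). The phosphate importer Slc20a1 had 263, 248, 238 and 246 CPM in the ORP5/8 KD libraries, against 132, 126, 129 and 127 CPM in the Parental libraries, and each gene was above the Parental range in every ORP5/8 KD library. Fxyd2, a regulator of the sodium pump, rose to 535 ± 39.0 CPM in ORP5/8 KD, against 329 ± 10.6 CPM in Parental, and carbonic anhydrase Car2 to 746 ± 13.2 CPM in ORP5/8 KD, against 376 ± 8.12 CPM in Parental.

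Marker genes were read to check the labelled cell type. All 12 macrophage markers had counts, but Mertk had only 7 over the ORP5/8 KD libraries and 6 over the Parental libraries. Of the 11 tested, 9 were lower and 2 higher (Adgre1 and Fcgr3). The 12 markers summed to 7686 to 8102 CPM in the ORP5/8 KD libraries, against 11810 to 12550 CPM in the Parental libraries. Lyz2 was the largest part of the sum, and the groups did not overlap. In such bulk libraries fewer cells of a kind and less RNA per cell cannot be told apart. Markers of other cell types were at 0 or low, apart from Ighm. Fibroblast markers summed to at most 0.442 CPM in ORP5/8 KD and 0.512 CPM in Parental, with 8 of 10 at 0 (Col1a1, Col1a2, Col3a1, Dcn, Lum, Pdgfra, Thy1 and Postn). T cell markers reached at most 0.516 and 0.469 CPM in ORP5/8 KD and Parental with 7 of 10 at 0, neutrophil and mast cell markers 0.639 and 0.246 CPM with 10 of 15 at 0, and epithelial markers 0.221 and 0.108 CPM with 8 of 10 at 0. Dendritic cell markers summed to 5.04 to 5.93 CPM in ORP5/8 KD, against 4.98 to 5.97 CPM in Parental. Of the 4 dendritic cell markers tested, Siglech was at least 2-fold higher (0.473, 0.233, 0.909 and 0.456 CPM in the ORP5/8 KD libraries, against 0.246, 0.0821, 0.0361 and 0.0603 CPM in the Parental libraries), with overlap between the groups (2.23 ± 0.543, adjusted p = 0.00195). No dendritic cell marker was called with ORP5/8 KD and Parental fitted alone or under the filter of 1 CPM in 4 libraries.

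B cell markers summed to 131 to 139 CPM in ORP5/8 KD, against 96.9 to 104 CPM in Parental, and came almost wholly from Ighm (chromosome 12, 113418558 to 113422730), which encodes the heavy chain of IgM, while Ms4a1, Igkc, Cr2 and Vpreb3 were at 0. The part of this sum in the next result was not tested. Of 20 tested MHC class II and B cell-associated genes among 48 listed, 10 were higher and 4 lower, and 8 were at least 2-fold higher. The other 28 listed members were below the count filter, which a member near 0 in Parental passes only through a group where it is high, so these counts are partly set by the filter. Ciita, the transactivator of class II genes, had 2.73, 3.08, 2.24 and 3.20 CPM in the ORP5/8 KD libraries, against 0.0308, 0.164, 0.0721 and 0.0603 CPM in the Parental libraries, and H2-Ab1 had 2.76, 2.38, 3.02 and 2.77 CPM in the ORP5/8 KD libraries, against 0.0615, 0.0821, 0.0361 and 0.0904 CPM in the Parental libraries. In Parental both were close to 0, and in ORP5/8 KD both were low but present in every library. H2-DMa rose to 10.3 ± 0.637 CPM in ORP5/8 KD, against 5.02 ± 0.232 CPM in Parental, while Cd74, the invariant chain, stood at 249 ± 22.8 CPM in ORP5/8 KD and 220.5 ± 15.8 CPM in Parental (adjusted p = 0.0963). Cd74 passed the test under upper-quartile scaling, with no filter on low counts, with ORP5/8 KD and Parental fitted alone and without ORP5/8 KD 1, at adjusted p from 0.0178 to 0.02995. Cd28, a costimulatory receptor, rose to 32.3 ± 1.89 CPM in ORP5/8 KD, against 14.2 ± 0.568 CPM in Parental, and Sla, an adaptor that limits receptor signalling, to 70.6 ± 1.84 CPM in ORP5/8 KD, against 21.7 ± 1.19 CPM in Parental, against falls of 0.80 in Lat2 and 0.67 in Lcp2 on the log2 scale. Of 40 tested lymphoid adaptors and costimulatory receptors 9 were higher and 17 lower. Hmga2, an architectural chromatin protein of fetal and tumour cells, had 38.9, 36.9, 38.2 and 40.8 CPM in the ORP5/8 KD libraries, against 123, 117, 116 and 116 CPM in the Parental libraries, a full separation (-1.61 ± 0.0438, adjusted p = 1.53e-17). Of the lineage transcription factors of the myeloid list, 18 of 56 tested were higher and 16 lower: Mef2c fell to 167 ± 9.09 CPM in ORP5/8 KD, against 249.6 ± 5.33 CPM in Parental, Lmo2, a bridging factor of early blood cells, by 0.76, and the retinoic acid receptor Rarb rose by 0.76 on the log2 scale. In the chromatin list 42 of 105 tested members were higher and 14 lower, with a median log2 fold change of 0.11, or 59 and 10 under upper-quartile scaling.

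Chromosome 12 stood apart from the other chromosomes in ORP5/8 KD. Of its 484 tested genes 217 (44.8%) were higher and 54 (11.2%) lower, and the median log2 fold change was 0.19, against medians from -0.06 on chromosome X to 0.06 on chromosome 7 for the 19 others with nuclear genes. Taken by library against the Parental mean, the chromosome 12 median was 0.21, 0.18, 0.16 and 0.18 on the log2 scale in the ORP5/8 KD libraries, against -0.0068, -0.0047, 0.0134 and -0.0028 in the Parental libraries. It was shared by all 4 ORP5/8 KD libraries and by no other library: the ATP11A/C KD libraries lay between -0.07 and 0.00, and the CDC50A KD libraries between -0.05 and 0.00. In 7 consecutive runs of 50 protein-coding genes, from Rab10 at the centromeric end to Traf3, the median lay between 0.14 and 0.24, and each run held 21 to 29 higher genes. Medians were also taken over all runs of 50 neighbouring protein-coding genes in the genome, those of chromosome 12 included. Their 5th percentile was -0.118 and their 95th was 0.157. The lowest of the 7 runs lay inside that spread, but chromosome 12 helped to set it, so no conclusion is drawn from this. The highest run of the genome, at 0.29, lay on chromosome 11. The direct comparison gave a chromosome 12 median of 0.21 against ATP11A/C KD and 0.215 against CDC50A KD, and it was 0.27 against Parental under upper-quartile scaling. Chromosome 12 held 3.69% of tested genes and 7.54% of the higher calls, and without it 2661 of 12623 genes were higher. Copy number was not measured in these data. Falls of genes on this chromosome, such as Fos, Etv1, Adam17, Efr3b, Ttc7b and Sdc1, went against its direction. Rises of others, such as Rps7, Mycn and Ighm, went along it.

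**Figure D5:**
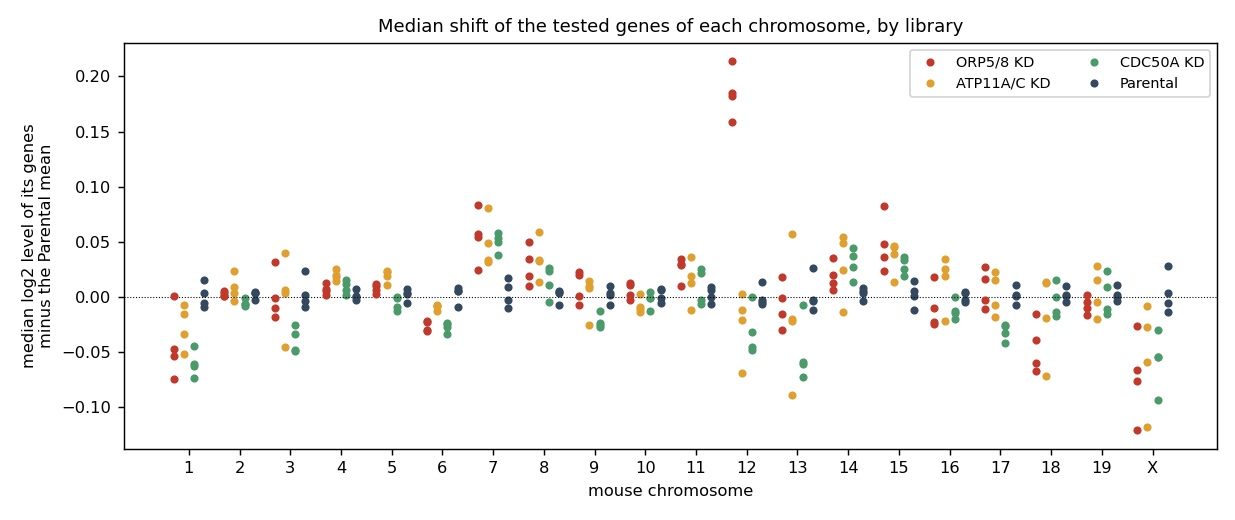
Median, over the tested genes of each mouse chromosome, of the log2 level in a library minus the mean of the Parental libraries (ORP5/8 KD, ATP11A/C KD, CDC50A KD and Parental from left to right within a chromosome; each point is 1 library). On chromosome 12 the 4 ORP5/8 KD libraries lie between 0.16 and 0.21, and all other libraries close to 0 or slightly below it.

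Whether these differences set ORP5/8 KD apart from the other knockdowns was read from direct comparisons, since values against Parental share the Parental libraries. Osbpl8 was low in each knockdown. Its log2 fold changes in ORP5/8 KD were -0.36 (adjusted p = 2.64e-05) over ATP11A/C KD and -0.23 (adjusted p = 0.00148) over CDC50A KD. The direct comparisons therefore do not isolate a loss of Osbpl8. Against ATP11A/C KD 18.2% of tested genes were higher and 20.4% lower in ORP5/8 KD, and against CDC50A KD 27.5% were higher and 29.4% lower. Under upper-quartile scaling the counts were 3095 higher and 2018 lower against ATP11A/C KD, and 4463 higher and 2891 lower against CDC50A KD. The genes described here were chosen after their values were seen. Cxcr4 stood at 17.9 ± 1.10 CPM in ORP5/8 KD, against 1.86 ± 0.509 CPM in ATP11A/C KD and 1.01 ± 0.366 CPM in CDC50A KD. Its log2 fold changes in ORP5/8 KD were 3.27 (adjusted p = 1.53e-12) over ATP11A/C KD and 4.10 (adjusted p = 9.43e-14) over CDC50A KD. Ndst1 stood at 36.7 ± 1.26 CPM in ORP5/8 KD, against 4.50 ± 0.953 CPM in ATP11A/C KD and 4.60 ± 0.433 CPM in CDC50A KD, with log2 fold changes of 3.02 (adjusted p = 1.66e-14) over ATP11A/C KD and 3.001 (adjusted p = 1.27e-14) over CDC50A KD. Parental lay between them, at 8.08 ± 1.27 CPM. The costimulatory receptor Cd28 was higher by 2.66 (adjusted p = 1.78e-16) over ATP11A/C KD and by 2.64 (adjusted p = 1.39e-16) over CDC50A KD, and the phosphoinositide 3-kinase inhibitor Pik3ip1 by 2.699 (adjusted p = 5.73e-09) and by 3.19 (adjusted p = 8.27e-10), in the same order. S1pr1 and Tob1 were also higher, by 1.08 (adjusted p = 2.31e-10) and 1.33 (adjusted p = 5.24e-13) on the log2 scale over ATP11A/C KD.

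Several genes were lower in ORP5/8 KD than in each of the other knockdowns. For Ccnd1 the log2 fold change was -1.30 (adjusted p = 2.80e-15) over ATP11A/C KD and -1.54 (adjusted p = 1.37e-16) over CDC50A KD. For Fos it was -1.10 (adjusted p = 3.79e-10) and -1.26 (adjusted p = 3.13e-11), for Dab2 -1.15 (adjusted p = 1.66e-14) and -1.23 (adjusted p = 3.79e-15), and for Gpr84 -1.83 (adjusted p = 1.57e-17) and -2.20 (adjusted p = 4.52e-19), with ATP11A/C KD given before CDC50A KD in each. These cover a cyclin, an immediate-early factor, an endocytic adaptor and a metabolite receptor. Edem1 had -1.02 (adjusted p = 1.29e-14) and -1.20 (adjusted p = 5.07e-16) and Creld2 -0.96 (adjusted p = 2.07e-13) and -1.32 (adjusted p = 6.97e-16), so these folding genes too were lower than in both of the other knockdowns. For both genes these differences were larger than the fall against Parental given above, so the other knockdowns stood above Parental. Cry1 and Nr1d1 were higher than in each, with Nr1d1 at 0.81 (adjusted p = 1.42e-06) over ATP11A/C KD and 0.78 (adjusted p = 1.51e-06) over CDC50A KD.

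Other genes were closer to the other knockdowns or went past ORP5/8 KD in them. Among the largest changes against Parental, Ranbp3l stood at 93.4 CPM in ORP5/8 KD, 77.1 CPM in ATP11A/C KD and 92.4 CPM in CDC50A KD. Sptbn1 stood at 7.79, 7.01 and 6.55 CPM and Kitl at 8.85, 11.5 and 10.3 CPM, in the same order. Sptbn1 was not shown to differ from either knockdown, nor Ranbp3l and Kitl from CDC50A KD. Others, such as Tmem26, Pcdh7 and Cnnm1, lay further from Parental in ORP5/8 KD than in either. Chst1 stood at 36.0 ± 2.98 CPM in ORP5/8 KD, against 51.3 ± 6.25 CPM in ATP11A/C KD and 89.7 ± 9.79 CPM in CDC50A KD, so ORP5/8 KD was lower than both, with log2 fold changes of -0.51 (adjusted p = 2.73e-05) over ATP11A/C KD and -1.32 (adjusted p = 1.51e-11) over CDC50A KD. Hpgd (-1.96, adjusted p = 1.04e-13 over ATP11A/C KD; -2.73, adjusted p = 3.08e-16 over CDC50A KD) and Slc20a1 (-1.18, adjusted p = 1.72e-15 over ATP11A/C KD; -1.03, adjusted p = 7.68e-15 over CDC50A KD) were likewise lower in ORP5/8 KD than in both. Efr3b stood at 6.36 ± 0.725 CPM in ORP5/8 KD, against 5.42 ± 0.405 CPM in ATP11A/C KD and 4.89 ± 0.315 CPM in CDC50A KD. It was slightly higher in ORP5/8 KD than in either, with log2 fold changes of 0.23 (adjusted p = 0.0498) over ATP11A/C KD and 0.39 (adjusted p = 0.00124) over CDC50A KD. For mt-Cytb neither difference passed the test (0.15, adjusted p = 0.139 over ATP11A/C KD; 0.04, adjusted p = 0.702 over CDC50A KD), nor for the citric acid cycle gene Mdh1 (-0.02, adjusted p = 0.752 over ATP11A/C KD; 0.01, adjusted p = 0.824 over CDC50A KD). Klf6, a zinc finger factor of the growth factor response list, fell to 62.9 ± 2.84 CPM in ORP5/8 KD, against 114 ± 1.59 CPM in Parental and was not shown to differ from either knockdown (-0.08, adjusted p = 0.139 over ATP11A/C KD; 0.01, adjusted p = 0.888 over CDC50A KD). Clock was lower than in ATP11A/C KD (-0.21, adjusted p = 0.0133) and higher than in CDC50A KD (0.24, adjusted p = 0.00357).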

How the data were processed

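RNA was sequenced from 16 RAW264.7 libraries, and the 4 ORP5/8 KD and 4 Parental libraries are described here. Per the labels' protocols, libraries were made with the TruSeq Stranded mRNA kit. Trim Galore 0.5.0, STAR 2.7.5a, Picard and RSEM served for trimming, alignment, quality control and quantification, per the submitters' processing notes. The authors deposited RSEM expected counts per gene, and 4.63% of the values carry decimals. They were rounded to whole counts. The table holds 55665 records, of which 92 ERCC spike-in records sum to 0 and were dropped. The number in the deposited column name of Parental 3 differs from that in its label, and the column was matched by its library name.

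Genes passing filterByExpr of edgeR 4.0.16 (R 4.3.3) with a minimum count of 10 were tested, 13107 genes holding nearly all counts. All 16 libraries, scaled by TMM, were fitted together by the quasi-likelihood method with a term for each group, so that all groups share 1 estimate of spread (biological coefficient of variation 6.86%). Each comparison had its own Benjamini-Hochberg adjustment, and calls were made at adjusted p under 0.05. The fit was tested on simulated counts. Osbpl5, below the filter, was compared by an exact permutation test on log2 (CPM + 0.1). Totals per library were 24020891 to 41543050 over the 16, and no pair of libraries within ORP5/8 KD or within Parental was a duplicate within sampling noise.

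The comparison, its 59 gene lists and the lists set aside were chosen with earlier results of these data known. Named genes are the targets, the 20 largest log2 rises and falls, the 10 largest changes in mean CPM each way, and the called members of each list with the smallest adjusted p or largest change. They had to be protein coding and free of overlap for the rankings. Further list members, among them those given as not passing the test, were chosen after their values were seen, and the text omits some genes that the rule took. Alternatives were upper-quartile scaling or DESeq2 size factors, the replicate number as a block, every gene kept or only those at 1 CPM in 4 libraries, DESeq2 1.42.0 with its Wald test, ORP5/8 KD and Parental fitted alone, and each library left out. A few genes withheld for evaluation are not reported here.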

Additional observations from a re-analysis of the deposited data

Results flagged for a closer look

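In groups of 4 libraries, the highest or lowest value was marked when its gap to the nearest of the others exceeded, as a share of the group's whole range, Dixon's critical value for that number of values. Of 502 groups of values examined, over the named genes, the shares of counts and the chromosome 12 medians, 17 were marked, and chance marks about 1 in 20.

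Parental 2 stood above the other Parental libraries for 3 genes. Creld2 had 136 CPM in it, against 122 to 124 CPM in the others. Hspa5 had 2429 CPM, against 2334 to 2335 CPM. Foxo3 had 68.0 CPM, against 60.3 to 61.3 CPM. In Parental 1, Dab2 reached 269.8 CPM where the others had 248 to 251 CPM, and Hmga2 reached 122 CPM where the others had 116 to 117 CPM. Parental 1 was the lowest for Atp6v1b2, at 269 CPM against 278 to 279 CPM, and for Mdh1, at 296 CPM against 312 to 314 CPM. Parental 3 was the highest for Efr3a, at 122 CPM against 112 to 113 CPM, and for Osbpl8, at 346 CPM against 333 to 335 CPM. In Parental 4, Csf3r had 7.17 CPM, above the 6.62 to 6.71 CPM of the others, and Sdc1 had 21.7 CPM, below their 23.2 to 23.3 CPM.

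Among the ORP5/8 KD libraries, the first was the highest for Spp1, at 886 CPM against 826 to 834 CPM, and for Lmo2, at 47.5 CPM against 45.5 to 45.8 CPM. It was the lowest for Ftl1, at 4318 CPM against 4784 to 4830.0 CPM. ORP5/8 KD 3 was the lowest for Efr3a, at 89.2 CPM against 97.8 to 99.4 CPM, and for Sla, at 67.9 CPM against 71.3 to 71.9 CPM. ORP5/8 KD 4 was the lowest for Lyz2, at 3916 CPM against 4230.0 to 4291 CPM. None of these genes changed its call when the marked library was left out.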

How the results depend on the processing

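The counts of genes higher and lower than Parental stayed within 1.5 times of the values reported under each alternative run. Leaving out each library in turn gave 2528 to 3000 genes higher and 2808 to 2994 lower, and 293 to 327 genes at least 2-fold higher and 536 to 576 at least 2-fold lower. The filter of 1 CPM in 4 libraries gave 185 genes at least 2-fold higher, since it removes low genes. Upper-quartile scaling gave 4270 genes higher and 2479 lower, turned the chromosome X median to 0.0115 and gave log2 fold changes of 0.0109 for Bax, 0.0022 for Stim1 and 1e-04 for Pi4ka, none of which passes the test. Osbpl5 had a difference of -0.0548 without ORP5/8 KD 1 and -0.0225 without Parental 2 (range over libraries left out -0.0548 to 0.423). Genes with no call that changed sign with 1 library left out were Bbc3 (-0.0646 to 0.0843), Dusp1 (-0.0147 to 0.078), Dusp2 (-0.0158 to 0.0957), Ftl1 (-0.0156 to 0.0782), Plk1 (-0.0164 to 0.0648) and Tsc22d3 (-0.0096 to 0.0546), and the cause was not tested. Among the genes taken by the naming rule or named in the text, Jun, Per1, Mrps12 and Mrps24 lost their calls under some alternatives, Jun under upper-quartile scaling, Per1 and Mrps24 with the replicate number as a block, and all 4 with 1 or another library left out. A call was gained by Ccnb1, Esyt2 and Rab10 under upper-quartile scaling, by Ccnd2 under that scaling and with ORP5/8 KD and Parental fitted alone, by Cd74 under 4 alternatives, and by Mcl1 in the DESeq2 Wald test. With the replicate number as a block 2823 genes were higher and 3138 lower. Same-numbered libraries had correlations of -0.006, 0.104, -0.034 and 0.005 in their deviations, and not every library correlated best with its own number, so the numbers were not read as pairs. Depth limits the lowest genes: a change of Osbpl5 was not detectable, while genes as low in Parental with larger changes, such as Siglech, were called.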
